A study of Mus musculus with 8 samples.

Results

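The genes described here are 38 immediate early and dissociation response genes, chosen by name: AP-1, EGR and NR4A transcription factors, IER proteins, DUSP phosphatases, GADD45, BTG and ZFP36 proteins, and heat shock chaperones. All 38 were found by symbol among the 31610 genes of the count table. RNA was sequenced from lung endothelial cells of C57BL/6J mice, isolated by flow cytometry, in 8 libraries: 4 of the treatment Control AAV and 4 of the treatment nANGPTL4 AAV, per the labels. An AAV is an adeno-associated virus used to carry a gene into tissue. ANGPTL4 blocks lipoprotein lipase, the enzyme that frees fatty acids from circulating triglyceride, and the labels do not spell out the prefix n. Both groups received a vector, so there was no group without virus, and the titles of the nANGPTL4 AAV libraries read NT Treated, which the labels do not explain. Whether the libraries came from separate or pooled animals, the age and sex of the mice, the promoter and dose of the vector, the time after injection, and the time and temperature of tissue dissociation are not stated in the labels. Undissociated lung was not analysed here. Since nothing says that libraries of a group came from separate mice, p-values measure only the spread between these libraries, which may be technical.

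Immediate early genes are switched on within minutes of a stimulus, without new protein being made, by kinase cascades that act on factors already bound at their promoters. FOS and JUN proteins pair to form AP-1, which binds DNA and drives a further wave of genes, while dual-specificity phosphatases and mRNA decay factors such as ZFP36 shut the response down. Heat shock chaperones are induced through the factor HSF1 when proteins misfold. Enzymatic digestion and sorting of tissue are known to induce both sets of genes.

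Promoter sequences are shown for 5 of the genes because their levels are set side by side below: Fos with its relative Fosb, Nr4a1, which had a wider range between libraries than Fos, and Hspa1a and Hspa1b, near-identical copies. Each is the 250 bases before the RefSeq start site in GRCm38.p6, written 5′ to 3′ on the strand of the gene: Fos chr12:85473640-85473889 on the plus strand, Fosb chr7:19310046-19310295 on the minus strand, Nr4a1 chr15:101266596-101266845 on the plus strand, Hspa1a chr17:34972157-34972406 on the minus strand and Hspa1b chr17:34959239-34959488 on the minus strand. Capitals mark TGACG on either strand (read as CGTCA on the other), the core of the cAMP response element, and TATAAA, the TATA box, in the first 3 genes. In the heat shock genes they mark GAANNTTC, a pair of inverted units of the heat shock element.
Fos: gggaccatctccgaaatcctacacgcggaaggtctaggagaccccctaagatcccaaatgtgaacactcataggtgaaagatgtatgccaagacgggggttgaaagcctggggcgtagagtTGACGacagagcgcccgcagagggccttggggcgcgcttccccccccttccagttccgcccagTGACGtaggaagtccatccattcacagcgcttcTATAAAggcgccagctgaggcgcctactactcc
Fosb: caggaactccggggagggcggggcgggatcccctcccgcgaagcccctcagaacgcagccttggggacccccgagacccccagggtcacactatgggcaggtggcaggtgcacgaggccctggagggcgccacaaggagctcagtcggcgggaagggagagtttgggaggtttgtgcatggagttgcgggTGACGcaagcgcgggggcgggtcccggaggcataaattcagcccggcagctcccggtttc
Nr4a1: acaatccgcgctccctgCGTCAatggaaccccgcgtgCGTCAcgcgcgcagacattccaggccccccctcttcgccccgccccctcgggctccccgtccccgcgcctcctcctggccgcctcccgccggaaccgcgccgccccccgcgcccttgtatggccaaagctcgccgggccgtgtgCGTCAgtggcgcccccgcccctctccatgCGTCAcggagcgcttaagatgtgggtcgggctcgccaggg
Hspa1a: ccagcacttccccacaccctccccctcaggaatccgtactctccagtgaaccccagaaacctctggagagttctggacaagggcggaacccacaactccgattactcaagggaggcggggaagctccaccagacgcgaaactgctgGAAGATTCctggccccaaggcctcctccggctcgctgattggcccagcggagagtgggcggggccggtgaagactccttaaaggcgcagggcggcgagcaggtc
Hspa1b: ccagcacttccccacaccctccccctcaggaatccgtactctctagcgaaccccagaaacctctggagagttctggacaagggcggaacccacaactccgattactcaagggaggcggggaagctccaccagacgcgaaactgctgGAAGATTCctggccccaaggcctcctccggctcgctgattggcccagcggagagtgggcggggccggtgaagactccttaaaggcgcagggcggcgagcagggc
The stretch before Fos held 2 TGACG matches and a TATAAA that began 33 bases before the start, the stretch before Fosb held 1 TGACG, and that before Nr4a1 held 4. The stretches before Hspa1a and Hspa1b were the same at 247 of 250 bases (98.8%), and each held a GAANNTTC at bases 104 to 97 before the start. Of the 38 genes, 33 had an entry in the promoter table, and Fosl1, Egr1, Egr3, Myc and Ier2 had none. TGACG was found in 12 of these 33 (36.4%), against 17.9% of 27025 promoters of the same length. Its full palindrome TGACGTCA, which contains TGACG, was found before Dusp1 and Btg2, 6.06% of the 33 against 1.62% of all. The CArG box, bound by serum response factor, was found before Dusp5 and Zfp36 (6.06% against 1.40%), and the AP-1 motif TGANTCA before Zfp36l1 (3.03% against 6.87%). GAANNTTC was found in 5 of 33 (15.2% against 6.78%), TTCNNGAA before Hsph1 (3.03% against 7.11%) and TATAAA in 6 of 33 (18.2% against 12.97%). Both strands were searched, and a match describes letters in this window, not binding.

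The levels of these genes ran from among the most abundant transcripts of the sorted cells to below the median gene. CPM, the read count scaled to a common library size, was divided by exonic length to compare genes with each other, and 11 of the 38 lay in the top 1% and 24 in the top 10% of 18819 tested genes with a length. Jun, the DNA-binding partner of FOS, stood at 1619 ± 169 CPM per kilobase (SD over 8 libraries), the place 8 among all genes. Ier2, an immediate early nuclear protein, followed at 1092 ± 168, Junb at 866 ± 137, Fos at 619 ± 126 and the MAP kinase phosphatase gene Dusp1 at 598 ± 141 CPM per kilobase. Jun was above Ier2 and Ier2 above Junb in all 8 libraries, whereas Fos was above Dusp1 in 4 of 8. The place in the order is therefore not fixed for Fos and Dusp1. Btg2 (225 ± 55.8) was likewise above Socs3 (224 ± 35.0) in 4 of 8 libraries. So were Ier5 above Nr4a1, Klf6 above Gadd45g, Atf3 above Dnajb1 and Egr2 above Fosl2. Dnajb1 was above Gadd45b, and Fosb above Hspa1b, in 3 of 8. Ranges of mean ± 1 SD of neighbours were apart at 5 steps of the order, from Jun to Ier2, Gadd45b to Zfp36l1, Btg1 to Maff, Fosl2 to Myc, and Dusp2 to Nr4a3. At the bottom stood Myc at 1.68, Egr3 at 1.15, Dusp2 at 0.840 and Nr4a3 at 0.185 CPM per kilobase. Within families the levels were far apart, with Jun above Jund (303) and Fos above Fosb (32.1), Fosl1 (3.52) and Fosl2 (3.15). The order was likewise Nr4a1 (96.5), Nr4a2 (5.18) and Nr4a3 in the NR4A family, and Egr1 (360), Egr2 (3.17) and Egr3 in the EGR family.

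**Figure D1:**
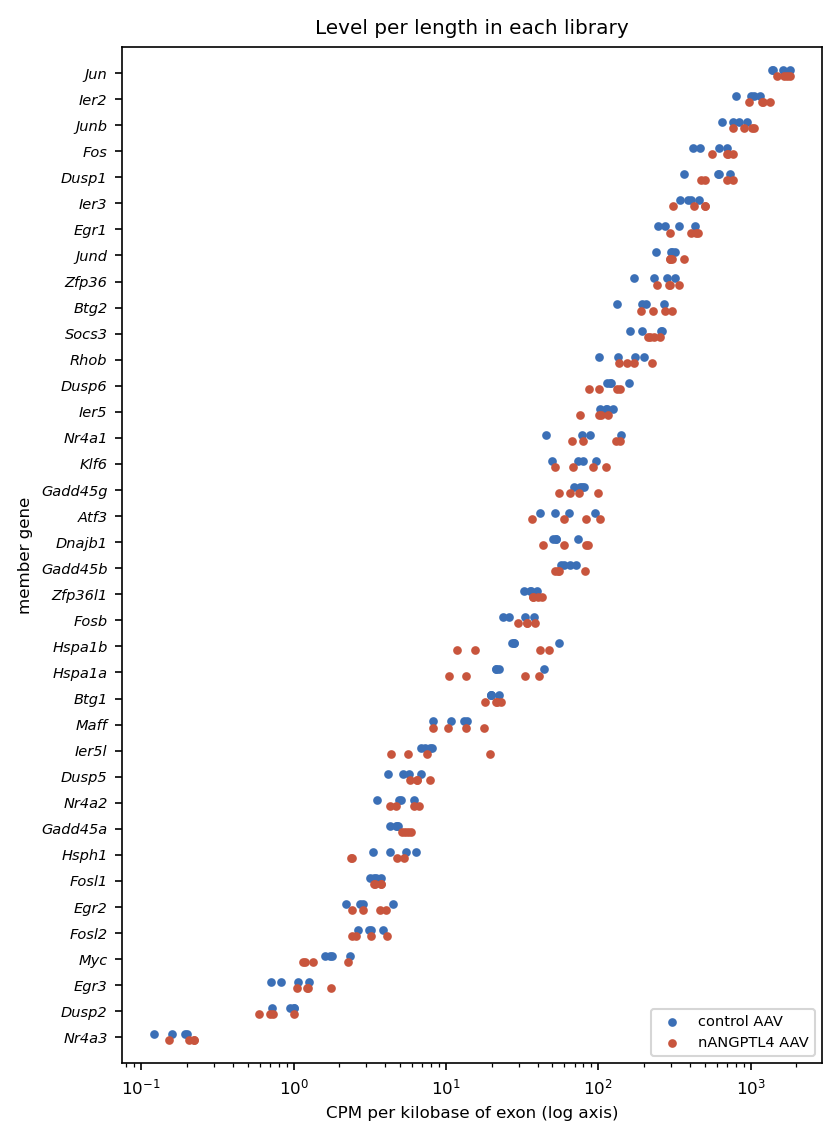
Level of each of the 38 genes in CPM per kilobase of exon on a log axis, with 1 point per library, blue for control AAV and red for nANGPTL4 AAV. Jun lies at the top near 1619 and Nr4a3 at the bottom near 0.185, and the colours overlap in all genes but Gadd45a.

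The comparison of the groups asks whether endothelial expression of these genes differs when nANGPTL4 is delivered. All 38 passed the low-count filter, and 0 were called at an adjusted p under 0.05 by edgeR (quasi-likelihood F test, Benjamini-Hochberg over 18874 genes), where 0.138% of all genes were called, 0.0477% higher and 0.0901% lower. At an unadjusted p under 0.05 there were 2, Gadd45a and Egr3, both higher in nANGPTL4 AAV, against 17.6% of all genes tested in either direction and 7.35% higher. DESeq2 called 1 of the 38, Gadd45a, where it called 6.29% of the genes it gave an adjusted p. Log2 fold changes (nANGPTL4 AAV minus control AAV) were positive in 28 and negative in 10 genes, from -0.40 for Hsph1 to 0.45 for Egr3, where 52.2% of all genes tested were positive. Their median was 0.13, beside 0.0089 for all genes tested and -0.034 for the 9256 genes with a mean log2 CPM over 3. Upper quartile scaling moved the last of these to 0.0058 and the median of the 38 to 0.17. The median of the 38 was 0.044 with control AAV library 2 left out, 0.070 when nANGPTL4 AAV library 1 was left out, 0.25 when control AAV library 1 was and 0.22 when nANGPTL4 AAV library 2 was. The number of the 38 at an unadjusted p under 0.05 also moved with some choices of fit. It stayed at 2 with RLE scaling (17.4% of all genes) and robust edgeR (17.6%), and was 3 with the stricter filter (19%). It was 7 with upper quartile scaling (17.2% of all genes), 7 with library size only (17.4%), 7 with no low-count filter (12.3%), 7 with limma-voom (18.3%), 4 with DESeq2 (11%) and 10 with a replicate block (14.5%). It was 11, 1, 1 and 3 when control AAV libraries 1 to 4 were left out in turn (15.5%, 13.1%, 16.1% and 16% of all genes). For nANGPTL4 AAV libraries 1 to 4 it was 3, 11, 7 and 3 (13.9%, 15.3%, 16.9% and 16%). In these counts all were higher in nANGPTL4 AAV, except 1 with the replicate block. Without nANGPTL4 AAV libraries 1, 3 and 4 there were also 2, 4 and 1 that were lower. None of the 38 passed adjustment in the fits other than DESeq2, where the share of all genes called was 0.122% with RLE scaling, 0.0212% with upper quartile scaling, 0.0212% with library size only, 0.0792% with no filter, 0.119% with the stricter filter, 0.111% with limma-voom, 0.313% with robust edgeR and 0.0318% with the block. With single libraries left out that share was 0.0052%, 0.0104%, 0.0104% and 0.00521% for control AAV and 0.00522%, 0.00523%, 0.00523% and 0.00526% for nANGPTL4 AAV. The precision was limited, since the 95% interval of 22 of the 38 genes reached beyond a log2 difference of 0.5 in either direction. In a bulk sample, fewer cells expressing a gene and less RNA per cell cannot be told apart.

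**Figure D2:**
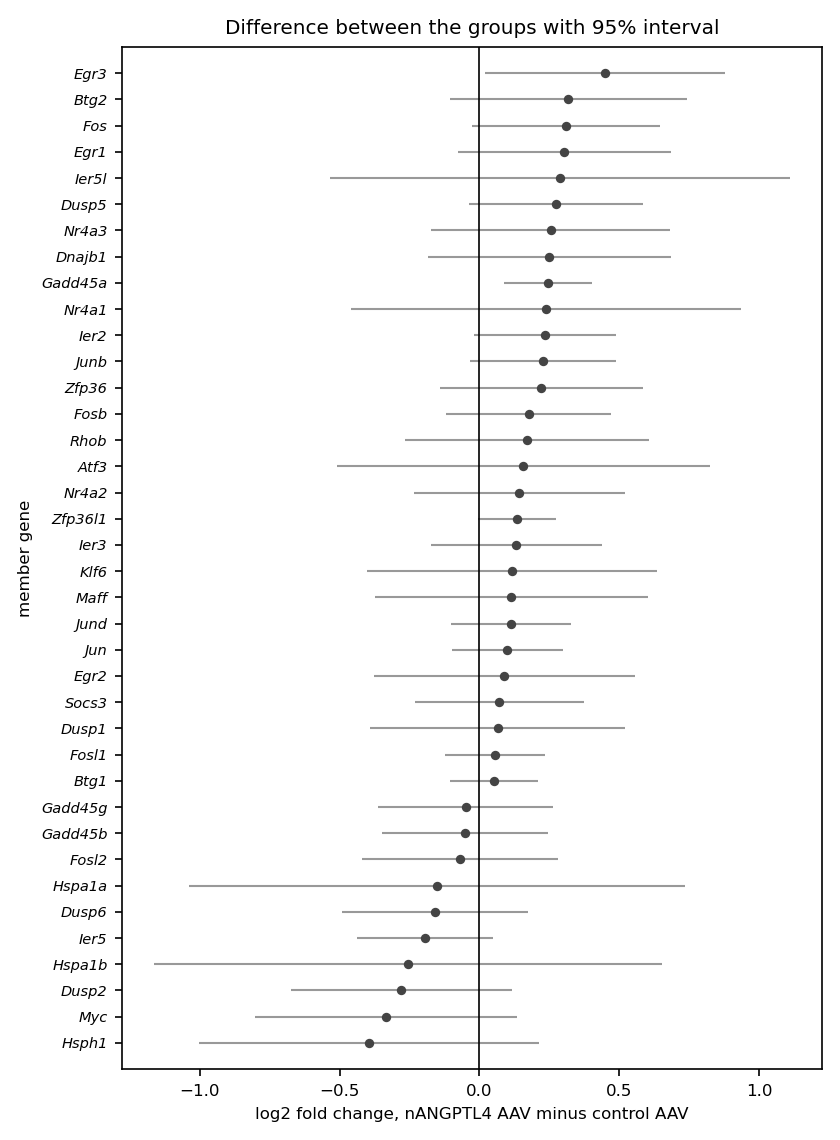
Log2 fold change of each of the 38 genes (nANGPTL4 AAV minus control AAV, points) with its 95% interval from the edgeR fit (lines), ordered by size from Hsph1 at -0.40 to Egr3 at 0.45. The intervals of Egr3 and Gadd45a lie above 0 and the others span it, before any adjustment for the number of genes.

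Among the AP-1 factors, 8 of 9 had positive values and 0 were called, with a median log2 fold change of 0.12. Fos, the founding immediate early gene, was at 1653, 991, 1093 and 1461 CPM over control AAV libraries 1 to 4, and at 1685, 1317, 1805 and 1641 CPM over the same numbers of nANGPTL4 AAV. Control AAV libraries 2 and 3 were the lowest and the groups overlapped, because control AAV libraries 1 and 4 exceeded nANGPTL4 AAV library 2. Group means of Fos were 1300 ± 311 and 1612 ± 208 CPM (SD, n = 4 each). Its log2 fold change was 0.31 (SE 0.15, edgeR adjusted p = 0.319) with a 95% interval from -0.026 to 0.65. Fosb, a FOS relative, ran beside it, at 236, 148, 162 and 208 CPM in control AAV and 212, 185, 241 and 214 CPM in nANGPTL4 AAV. The ratio of Fosb to Fos ran from 0.142 to 0.150 in the control and from 0.126 to 0.140 in the nANGPTL4 libraries, ranges that only just parted. That of Egr1 to Fos was 1.048 to 1.17 and 1.01 to 1.195 in the same groups, with overlap. The other ratios computed also overlapped. How often ratios of other genes part in this way was not tested. Junb, a JUN relative, was at 2164, 1492, 1758 and 1923 CPM in control AAV and 2410, 1770, 2343 and 2074 CPM in nANGPTL4 AAV, and the log2 fold change came to 0.23 (SE 0.12; edgeR adjusted p = 0.345). Its lowest library was again control AAV library 2, and the groups overlapped. Jun moved less between libraries, from 4435 to 5803 CPM over all 8, with a log2 fold change of 0.10 (SE 0.09). Atf3, a stress-induced repressor of the ATF family, ranged widely, at 205, 89.3, 112 and 139 CPM in control AAV and 221, 79.5, 129 and 179 CPM in nANGPTL4 AAV. Each group held both high and low libraries of Atf3, and the log2 fold change was 0.16 (SE 0.30). The small MAF protein gene Maff was at 0.12, Jund at 0.11, Fosl1 at 0.056 and Fosl2 at -0.070. Reads of Jund and Fosl1 are less certain, since 52.6% of the exonic bases of Jund overlap an antisense gene and 57.2% of those of Fosl1 overlap Ccdc85b on the other strand. Ccdc85b was at 218 and 213 CPM in the control and nANGPTL4 groups, against 7.01 and 7.29 CPM for Fosl1. The strand setting of the counting is not given in the labels, so reads from the 2 strands cannot be told apart.

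Of the EGR, NR4A, MYC and KLF6 factors, 7 of 8 had positive values and 0 were called (median 0.19). Egr1, a zinc finger factor downstream of ERK signalling, was at 1928, 1104, 1221 and 1531 CPM in control AAV and 1832, 1326, 2020 and 1962 CPM in nANGPTL4 AAV. Control AAV library 1 stood with the higher nANGPTL4 libraries, so the groups overlapped, and the log2 fold change was 0.30 (SE 0.17, edgeR adjusted p = 0.391). Egr3, a low-abundance relative, was at 5.58, 3.14, 3.63 and 4.73 CPM in control AAV and 7.71, 4.67, 5.52 and 5.41 CPM in nANGPTL4 AAV. The log2 difference of 0.45 (SE 0.19, edgeR adjusted p = 0.264) did not pass, and the groups overlapped at control AAV libraries 1 and 4. Nr4a1, an orphan nuclear receptor, was at 497, 159, 276 and 310 CPM in control AAV and 490, 278, 238 and 461 CPM in nANGPTL4 AAV. Both groups spanned low and high levels of Nr4a1, with a 3.13-fold range within the control libraries, and the log2 fold change was 0.24 (SE 0.32) with a 95% interval from -0.46 to 0.94. The control libraries had the same order for Nr4a1 as for Fos, with a wider range, and the ratio of Nr4a1 to Fos was 0.301 in control AAV library 1 and 0.160 in control AAV library 2. In nANGPTL4 AAV library 3, the highest for Fos, Nr4a1 was the lowest of its group, at a ratio of 0.132. Centred on group means, Nr4a1 correlated at r = 0.909 with the mean profile of the 9 AP-1 genes over 8 libraries, and Egr1 at 0.845, given as a description. Klf6, a Krüppel-like factor, was at 428, 219, 351 and 324 CPM in control AAV and 496, 230, 301 and 407 CPM in nANGPTL4 AAV, with a log2 fold change of 0.12 (SE 0.24). Nr4a2 was at 0.14, Egr2 at 0.090 and Nr4a3, at 1.01 and 1.203 CPM, at 0.26. Myc, the growth-promoting factor, stood at -0.34 on that scale (SE 0.21; edgeR adjusted p = 0.447). Its values were 6.39, 4.37, 4.85 and 4.69 CPM in control AAV and 6.14, 3.22, 3.63 and 3.11 CPM in nANGPTL4 AAV, so 3 nANGPTL4 libraries lay below all controls and library 1 did not.

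The IER genes code for small proteins of the growth factor response. Ier2 was at 1750, 1220, 1539 and 1595 CPM in control AAV and 2048, 1482, 1838 and 1820 CPM in nANGPTL4 AAV, with 3 nANGPTL4 libraries above all controls and library 2 among them. The log2 fold change of Ier2 was 0.24 (SE 0.11, edgeR adjusted p = 0.316). Ier3 had a log2 fold change of 0.13 and Ier5, which takes part in heat shock factor control, one of -0.19 (SE 0.11, edgeR adjusted p = 0.392). Ier5l, a relative of Ier5, was at 21.7, 19.6, 18.4 and 21.2 CPM in control AAV and 15.1, 11.7, 51.9 and 20.1 CPM in nANGPTL4 AAV. The control libraries lay close together while nANGPTL4 AAV library 3 stood far above the others of its group. The log2 fold change of Ier5l was 0.29 (SE 0.37) with all libraries and -0.36 without nANGPTL4 AAV library 3.

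Among the feedback genes 4 of 6 had positive values and 0 were called (median 0.068). Dusp1, which codes for a phosphatase that switches off p38 and JNK kinases, was at 2439, 1206, 2037 and 2055 CPM in control AAV and 2550, 1668, 1562 and 2315 CPM in nANGPTL4 AAV. Its lowest library was control AAV library 2, the groups overlapped, and the log2 fold change was 0.065 (SE 0.21). In nANGPTL4 AAV library 3, where Fos was at its highest, Dusp1 was at the lowest level of its group. The ratio of Dusp1 to Fos was 0.865 there, and 1.51, 1.27 and 1.41 in nANGPTL4 AAV libraries 1, 2 and 4. In the control libraries that ratio ran from 1.22 to 1.86. Dusp6, a phosphatase for ERK, was at 378, 356, 499 and 373 CPM in control AAV and 435, 271, 318 and 415 CPM in nANGPTL4 AAV, with a log2 fold change of -0.16 (SE 0.15). The nuclear phosphatase gene Dusp5 stood at 0.27 (log2 fold change, SE 0.14; edgeR adjusted p = 0.344) and Dusp2 one of -0.28 (SE 0.18). Of the exonic bases of Dusp5, 22.1% overlap an antisense gene. Socs3, an inhibitor of cytokine receptors, was at 747, 468, 556 and 753 CPM in control AAV and 736, 611, 671 and 635 CPM in nANGPTL4 AAV (log2 fold change 0.072, SE 0.14). Rhob, a small GTPase gene, was at 470, 239, 318 and 412 CPM in control AAV and 529, 365, 324 and 403 CPM in nANGPTL4 AAV (log2 fold change 0.17, SE 0.20). All 6 feedback genes overlapped between the groups.

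Gadd45a, which codes for a growth arrest protein induced by DNA damage, was the gene of the 38 whose groups did not overlap, where 10.9% of all genes tested did not, 3.89% higher and 6.99% lower. It was at 8.52, 7.63, 8.46 and 8.24 CPM in control AAV and 9.56, 9.89, 10.4 and 9.11 CPM in nANGPTL4 AAV. The log2 fold change was 0.25 (SE 0.07, 95% interval 0.089 to 0.40), which did not pass in the edgeR test (adjusted p = 0.121) and did in DESeq2 (adjusted p = 0.0273). The noncoding gene E230016M11Rik on the other strand overlaps 19.1% of its exonic bases and was at 1.23 and 1.55 CPM. Gadd45b and Gadd45g, relatives that answer to cytokines and stress, did not share this pattern. Gadd45b was at 103, 113.8, 90.3 and 94.4 CPM in control AAV and 83.2, 87.8, 131 and 85.9 CPM in nANGPTL4 AAV, and Gadd45g at 92.0, 94.6, 81.3 and 89.1 CPM and at 76.6, 87.1, 116 and 65.0 CPM. Both were highest in nANGPTL4 AAV library 3 and both had log2 fold changes of -0.05. Zfp36, which codes for a protein that marks AU-rich mRNAs for decay, was at 1103, 592, 808 and 975 CPM in control AAV and 1181, 844, 1020 and 1009 CPM in nANGPTL4 AAV, and the log2 fold change came to 0.22 (SE 0.16; edgeR adjusted p = 0.524). The antiproliferative gene Btg2 was at 740, 367, 531 and 563 CPM in control AAV and 841, 524, 629 and 749 CPM in nANGPTL4 AAV, and the log2 fold change came to 0.32 (SE 0.19; edgeR adjusted p = 0.424). In both genes control AAV library 2 was the lowest and the groups overlapped. Zfp36l1, whose exonic bases overlap a noncoding gene on the other strand by 55.9%, was at 0.13 (SE 0.06, edgeR adjusted p = 0.305), and Btg1 at 0.052 (SE 0.07).

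Of the 4 heat shock chaperones 1 had a positive value and 0 were called (median -0.20). Hspa1b, an inducible HSP70 gene, was at 155, 78.3, 78.8 and 76.2 CPM in control AAV and 116, 33.1, 43.5 and 133 CPM in nANGPTL4 AAV. Control AAV library 1 and nANGPTL4 AAV libraries 1 and 4 were high and nANGPTL4 AAV libraries 2 and 3 were below every control. The range over 8 libraries was 4.68-fold, and the log2 fold change was -0.26 (SE 0.41) with a 95% interval from -1.16 to 0.65. Hspa1a was at 130, 66.7, 63.1 and 63.6 CPM in control AAV and 98.6, 30.97, 40.3 and 121 CPM in nANGPTL4 AAV (log2 fold change -0.15, SE 0.40). The copies share much of their sequence, with 63.8% of the 31-base stretches of Hspa1a also in Hspa1b, so reads can be split between them and neither count is certain. Their ratio stayed between 0.801 and 0.935 in all libraries. Dnajb1, the HSP40 partner of HSP70, was at 235, 163, 169 and 168 CPM in control AAV and 267, 139, 192 and 276 CPM in nANGPTL4 AAV, with the same high libraries and a log2 fold change of 0.25 (SE 0.20). Hsph1, an HSP110 exchange factor gene, was at 31.2, 39.8, 46.5 and 24.1 CPM in control AAV and 34.5, 17.4, 17.5 and 38.3 CPM in nANGPTL4 AAV. In the controls its high libraries were 2 and 3 rather than 1, and its log2 fold change was -0.40 (SE 0.28, edgeR adjusted p = 0.494).

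**Figure D3:**
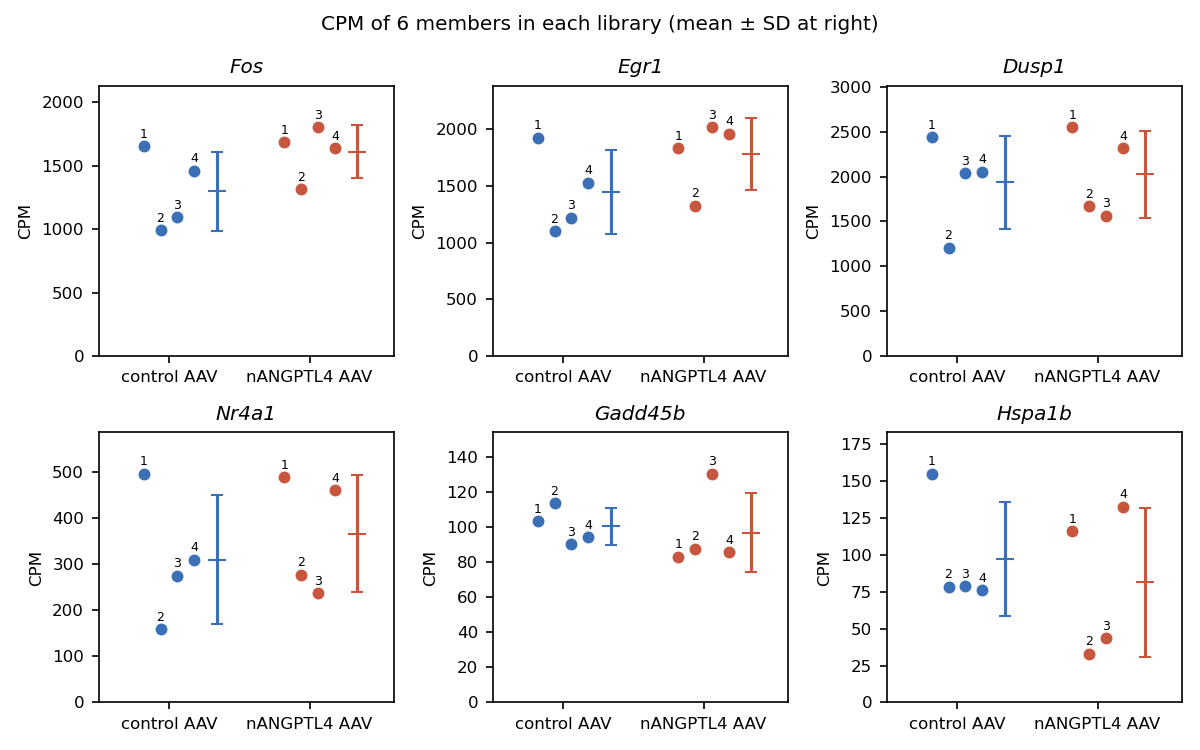
CPM of Fos, Egr1, Dusp1, Nr4a1, Gadd45b and Hspa1b in each library (points, numbered by library) with mean ± SD beside them (n = 4 each), blue for control AAV and red for nANGPTL4 AAV, on axes that start at 0. The groups overlap in all 6, and library 3 of nANGPTL4 AAV is high for Fos, Egr1 and Gadd45b and low for Dusp1, Nr4a1 and Hspa1b.

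Most of these genes varied more between replicate libraries than other genes of their level. Among the 33 with a mean log2 CPM over 3, the SD of log2 CPM within groups had a median of 0.29, against 0.083 for the 9256 genes of that level. It exceeded the upper decile of those genes, 0.169, in 29 of 33. The largest values were 0.79 for Hspa1b, 0.77 for Hspa1a, 0.67 for Ier5l, 0.60 for Nr4a1 and 0.58 for Atf3. The smallest were 0.076 for Gadd45a, the one below the median of those genes, 0.10 for Zfp36l1 and 0.12 for Btg1. Fosl1, below that level of expression, stood at 0.095.

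**Figure D4:**
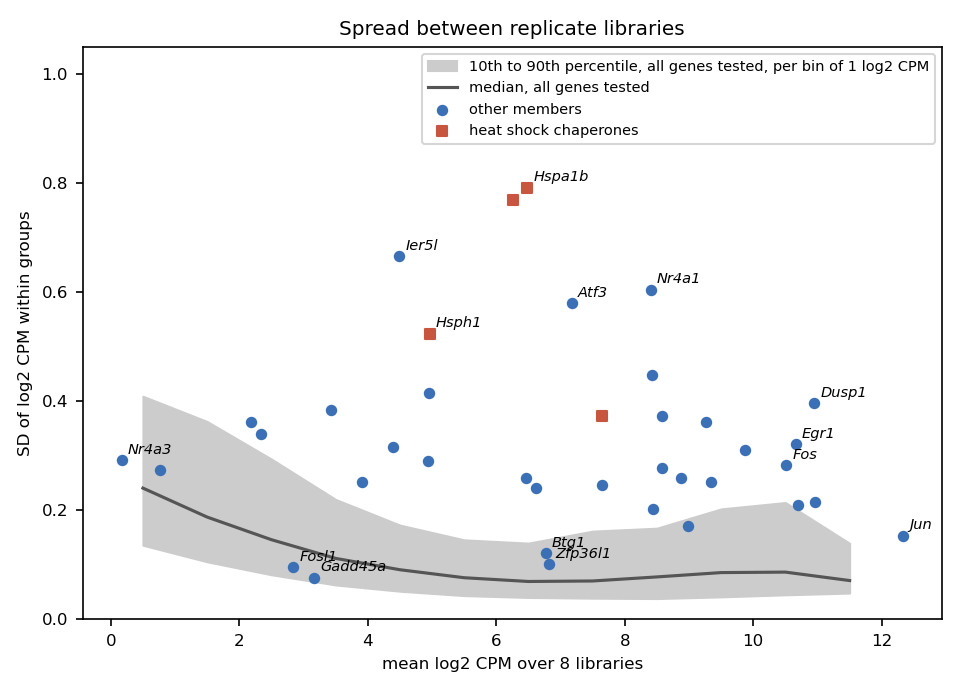
SD of log2 CPM within groups against mean log2 CPM for the 38 genes (points, heat shock chaperones as red squares), with the median (line) and the 10th to 90th percentile (grey band) of all genes tested in bins of 1 log2 CPM. Most of the genes lie above the band, Hspa1b at 0.79 and Nr4a1 at 0.60, while Gadd45a lies at 0.076.

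As a share of all counts, the 38 genes together made up 2.24%, 1.51%, 1.78% and 1.98% of control AAV libraries 1 to 4. In nANGPTL4 AAV libraries 1 to 4 the share was 2.43%, 1.80%, 2.13% and 2.27%, and the groups overlapped. Control AAV library 1 was the highest of its group in 28 of the 38 genes (73.7%), against 38.5% of genes with a mean log2 CPM over 3. Control AAV library 2 was the lowest of its group in 26 (68.4%, against 27.7% of such genes). In nANGPTL4 AAV, library 1 was the highest of its group in 19 (19.7% of such genes) and library 2 the lowest in 23 (31.3%). Over all 8 libraries, control AAV library 2 was the lowest in 19 of the 38 (13.3% of such genes) and nANGPTL4 AAV library 2 in 10 (23.9%). The highest of 8 was nANGPTL4 AAV library 1 in 14 (7.465% of such genes), nANGPTL4 AAV library 3 in 10 (9.86%) and control AAV library 1 in 6 (24.5%). Library 3 of nANGPTL4 AAV parted the roles, with median deviations from the mean of each gene over 8 libraries of 0.23 for the IER genes and 0.16 for the ZFP36, BTG and GADD45 genes, and of -0.21 for the feedback genes and -0.76 for the heat shock genes. The heat shock genes had medians of 0.59 in control AAV library 1, 0.48 and 0.62 in nANGPTL4 AAV libraries 1 and 4, and -0.96 in nANGPTL4 AAV library 2. With each gene centred on its group mean, the mean profile of the 9 AP-1 genes ran at 0.26, -0.28, -0.060 and 0.075 in control AAV and 0.24, -0.25, -0.058 and 0.073 in nANGPTL4 AAV. Outside all gene lists, the 5 of 9109 genes closest to this profile over the 8 libraries were Clcn3, Ing5, Zfp646, Osbpl8 and Sprtn, with Pearson's r from 0.964 to 0.985 and Spearman's rho from 0.929 to 0.976. They were picked for that likeness, so these values describe them and carry no test.

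**Figure D5:**
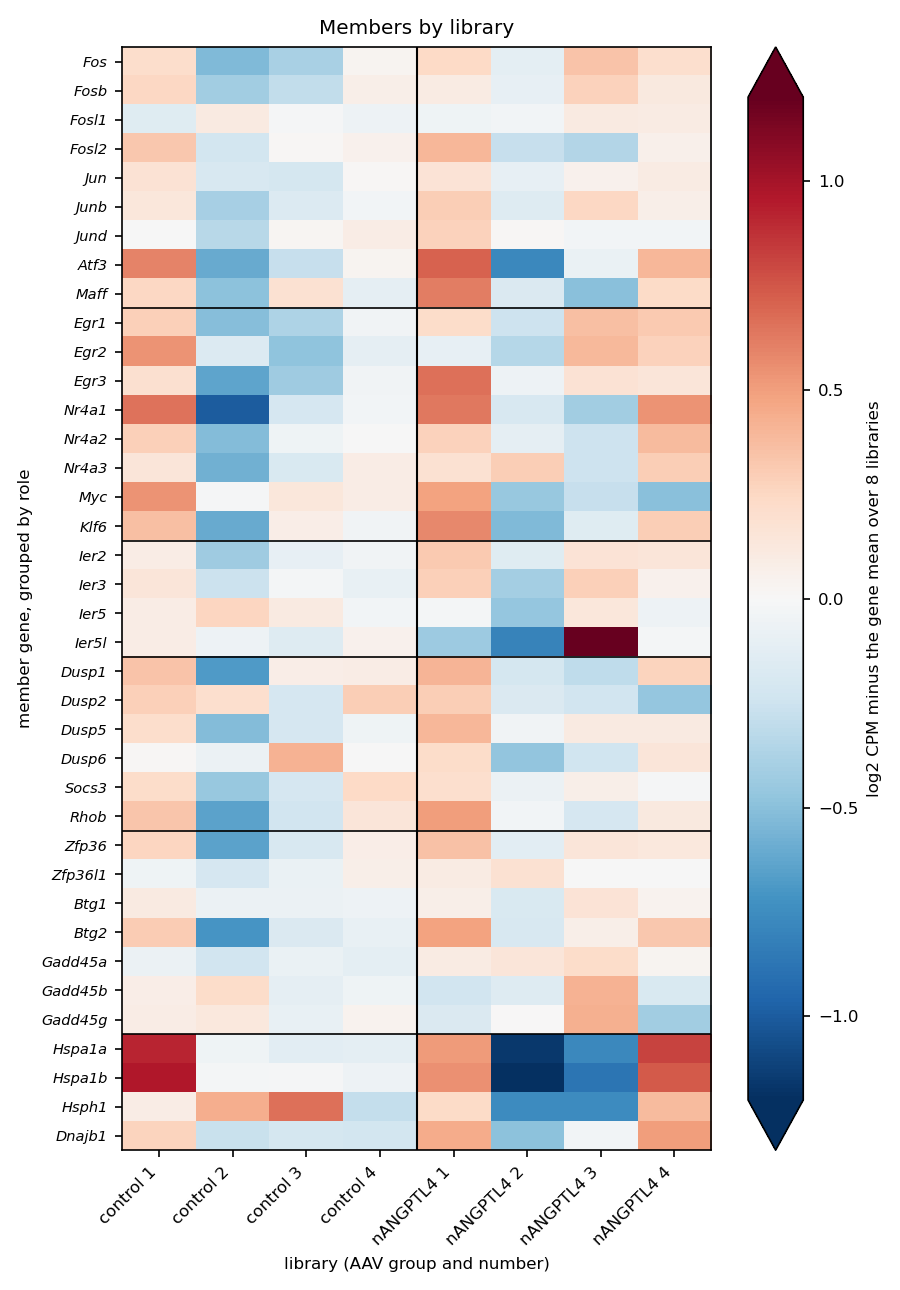
Log2 CPM of the 38 genes in each library minus the mean of the gene over 8 libraries, red above and blue below, with rows grouped by role and the groups of libraries split by a vertical line. Control library 2 is blue in most rows, nANGPTL4 library 2 is blue in the heat shock rows at a median of -0.96, and Ier5l exceeds the colour scale in nANGPTL4 library 3.

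Genes around this response were read from lists of other pathway members, and 0 of them were called. In the chain that carries the signal to immediate early genes (ERK, JNK and p38 kinases, SRF and its partners, and CREB), 15 of 19 were negative and the median was -0.097 (log2 fold change). Positive values were seen in 52.2% of all genes tested. For the 9256 more abundant ones (mean log2 CPM over 3) that share was 37.5% and the median -0.034. Negative values thus prevailed there too with TMM scaling. With upper quartile scaling the share was 52.3% and with library size only 53.6%, so this background depended on the scaling. The signs of the 19 genes were not read with those scalings. At an unadjusted p under 0.05 in edgeR there were 7 of 19, all lower, where 10.3% of all genes tested were lower and 7.35% higher. In the other lists the count was 6 of 32 for other immediate early and dissociation genes (1 higher, 5 lower). It was 3 of 14 for feedback inhibitors (1 higher, 2 lower) and 3 of 11 for AP-1 partners and relatives (1 higher, 2 lower). For other heat shock genes it was 3 of 20 (2 higher, 1 lower). Creb1, the cAMP response element binding factor, was at 96.5 ± 6.28 and 79.95 ± 6.64 CPM (SD, n = 4 each), with a difference of -0.27 on the log2 scale (edgeR adjusted p = 0.0902), and the ERK-activated kinase gene Rps6ka3 had -0.22 (edgeR adjusted p = 0.0999). In both genes the groups did not overlap. Of 14 feedback inhibitors of MAP kinases 7 were negative (median -0.052), with the ERK phosphatase gene Dusp7 at -0.21 (edgeR adjusted p = 0.0642) and groups that did not overlap, and Dusp10 at 0.34 (edgeR adjusted p = 0.149). Of 32 other immediate early and dissociation genes 22 were positive, with a median of 0.058. Phlda1, a growth factor response gene, was at 13.9 ± 0.877 and 19.6 ± 2.98 CPM with groups that did not overlap and a log2 fold change of 0.49 (edgeR adjusted p = 0.0691), and the TGF-beta response gene Klf10 had -0.67 (edgeR adjusted p = 0.147). The 11 AP-1 partners and relatives had a median of -0.014. Atf7 was at -0.13 (edgeR adjusted p = 0.108), with groups that did not overlap. The barely detected Batf3, at 0.112 and 0.238 CPM, was at 1.11 (edgeR adjusted p = 0.149), with overlap. The 20 other heat shock genes had a median of -0.019, with the small heat shock protein gene Cryab at 0.27 (edgeR adjusted p = 0.156) and the HSP90 co-chaperone gene Chordc1 at -0.28 (edgeR adjusted p = 0.280).

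Total counts were 83183122 to 114337333 per library. All 12 endothelial markers listed were measured, with a summed level of 21539 to 22182 CPM in control AAV and 20533 to 21491 CPM in nANGPTL4 AAV. Of the neutrophil markers 9 of 10 were below 1 CPM in every library, S100a8 among them, and their sum was 5.49 to 7.49 CPM in control AAV and 5.39 to 7.85 CPM in nANGPTL4 AAV, nearly all from Hdc. Summed lymphocyte markers (10 of 14 below 1 CPM) were at 3.19 to 4.17 CPM in control AAV and 4.07 to 8.71 CPM in nANGPTL4 AAV, and macrophage and monocyte markers (8 of 12 below 1 CPM) at 19.2 to 41.3 and 30.8 to 50.3 CPM. Fibroblast and mural markers summed to 66.7 to 136 and 77.5 to 167 CPM, epithelial markers to 492 to 650 and 631 to 742 CPM, and erythroid and platelet markers to 45.9 to 89.0 and 74.9 to 87.4 CPM. At an unadjusted p under 0.05 in edgeR, 7.35% of all genes tested were higher in nANGPTL4 AAV and 10.3% lower. Of the measured markers, 5 of 7 lymphocyte, 5 of 9 erythroid and platelet, 3 of 15 epithelial and 1 of 6 macrophage and monocyte markers were higher at that cut. Lower at that cut were 2 of 12 endothelial, 1 of 15 epithelial and 1 of 12 fibroblast and mural markers. The club cell gene Scgb3a2 was called by edgeR, at 0.328 ± 0.0513 and 0.804 ± 0.106 CPM (SD, n = 4 each), a log2 difference of 1.30 (adjusted p = 0.0369) with groups that did not overlap. None of these markers was at 0 in all libraries. The mean log2 CPM of the 50 measured markers of other cell types was 1.06, 1.49, 1.78 and 1.57 over the control AAV libraries and 1.66, 2.15, 1.596 and 1.88 over those of nANGPTL4 AAV, lowest in control AAV library 1 and highest in nANGPTL4 AAV library 2. With this score as a covariate, 0 of the 38 genes were called in the edgeR test, 33 had positive values, the median log2 fold change was 0.29, and 16 had an unadjusted p under 0.05, where 11.9% of all genes had. The smallest adjusted p was then 0.263, for Fos. Mitochondrial transcripts made up 0.178% to 0.220% of counts. The part of other cells or of RNA quality in these values was not tested.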

How the data were processed

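The deposited values were raw read counts per Ensembl gene, not normalized by the authors, for 8 libraries. The submitters' processing notes name the build mm10. The aligner, counter, strand setting and gene models used for counting: not given in the sources used here. Of 31610 identifiers, 31491 matched a symbol without their version number. Lengths, positions and overlaps came from GENCODE M21, and promoters from RefSeq on GRCm38.p6.

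The groups were compared with edgeR 4.0.16 in R 4.3.3 (filterByExpr with a minimum count of 10, TMM scaling, quasi-likelihood F test, group as the only term), with Benjamini-Hochberg adjustment over 18874 genes and calls at an adjusted p under 0.05. CPM used TMM-scaled library sizes, and log2 CPM a prior count of 2. The script was tested on simulated data. The 38 genes and all lists were chosen with earlier results of these data known. All 38 are named, with the 2 genes of smallest p in each other pathway list, 1 called marker and the 5 genes closest to the AP-1 profile. Alternatives were other scalings and filters, DESeq2 1.42.0, limma-voom 3.58.1 with quality weights, robust edgeR, a replicate block, a covariate for markers of other cell types and leaving out each library. Library totals were 83183122 to 114337333 counts, and the labels do not say whether libraries of a group came from separate mice.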

Additional observations from a re-analysis of the deposited data

Results flagged for a closer look

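In 8 of 76 groups of 4 values (38 genes in 2 groups), a single library lay apart from the other 3, with a gap to the nearest of them above Dixon's 95% critical value, where chance flags about 1 group in 20. Control AAV library 1 was the high library for Hspa1a (129.8 CPM), Hspa1b (155.0 CPM), Dnajb1 (234.6 CPM) and Btg1 (117.2 CPM), and control AAV library 3 for Dusp6 (498.9 CPM). In nANGPTL4 AAV, library 1 stood apart for Jund (610.9 CPM) and Myc (6.142 CPM) and library 3 for Gadd45b (130.5 CPM). The Hspa1a and Hspa1b counts share reads and are not separate cases.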

How the results depend on the processing

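Of the 38 genes, 0 were called in 17 of 18 alternative fits, and DESeq2 called 1, Gadd45a. The signs of 26 of the 38 log2 fold changes were the same in all 18. Over all genes the edgeR count of 26 was 4 with upper quartile scaling, 4 with library size only, 17 with the stricter low-count filter, 59 with robust edgeR, 0 with the covariate for other cell types (2249 at an unadjusted p under 0.05), and 1 to 2 when any 1 library was left out, and DESeq2 called 985. With the covariate, the sign turned for Fosl2 (0.095), Gadd45b (0.095), Gadd45g (0.065), Hspa1a (0.42) and Hspa1b (0.30). Leaving out 1 library gave log2 fold changes of both signs for Fosl2 (-0.23 to 0.040), Atf3 (-0.069 to 0.43), Maff (-0.093 to 0.28), Egr2 (-0.025 to 0.34), Klf6 (-0.069 to 0.29), Ier5l (-0.36 to 0.54), Dusp1 (-0.094 to 0.21), Socs3 (-0.036 to 0.17), Gadd45b (-0.22 to 0.024), Gadd45g (-0.22 to 0.065), Hspa1a (-0.51 to 0.18) and Hspa1b (-0.60 to 0.074). The cause was not tested. The labels do not say what a replicate number marks. Over the 9256 genes with a mean log2 CPM over 3, the deviations of same-numbered libraries correlated at 0.14, 0.16, -0.25 and -0.31. The numbers were therefore not taken to pair the libraries. The AP-1 profile ran number for number alike in both groups. The 38 genes took a higher share of counts in nANGPTL4 AAV at each of the 4 numbers. The group ranges of that share overlapped, at 1.51% to 2.24% in control AAV and 1.80% to 2.43% in nANGPTL4 AAV. As the numbers have no stated meaning, these matches carry no test. With the replicate block, 6 genes in all and 0 of the 38 were called, 10 of the 38 had an unadjusted p under 0.05 (9 higher), and the smallest adjusted p was 0.171, for Ier2 and Btg2.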
